A study of Microtus ochrogaster with 2 samples.

Results

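Twin peaks are places where exactly 2 H3K4me1 peaks face each other across a short gap and no other peak lies near. Peaks of the list were joined into clusters wherever the gap between neighbours was at most 12.5 kb, on the 18 named chromosomes and 10 linkage groups, and clusters of exactly 2 peaks with a gap of 200 to 2000 bp were kept. This gave 1012 twin pairs among 15576 clusters on those sequences (6.50%), and among 20983 clusters in the whole list. They held 2024 of 27164 peaks (7.45%). The positions of the peaks themselves chose the pairs, so gap size, width and height below are descriptions, while the positions of genes played no part in the choice.

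The peaks came from the retrosplenial cortex, a midline cortical area used in spatial memory, of male prairie voles (Microtus ochrogaster) 30 to 40 days old. A library made with an antibody against H3K4me1 was set against an input library from the same tissue with no antibody, and there was 1 library of each kind. The study names 8 males, and the sources used here do not say which of them entered which library. The labels used here give no treatment or genotype for either library. The peak caller kept 37430265 ChIP fragments and 47554684 input fragments, and made 1 list of 36238 peaks from both. With no replicate, intervals below are 95% intervals of counting error only, and they say nothing of the spread between animals.

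H3K4me1 is a single methyl group on lysine 4 of histone H3. It marks enhancers, and it also lies on the nucleosomes beside active promoters, where the nucleosomes nearest to the start of transcription carry trimethylation instead. The stretch that binds transcription factors or the polymerase is itself poor in nucleosomes, so the mark can appear as shoulders on either side of a dip, at enhancers and promoters alike. Where neighbouring genes start back to back a short distance apart, the same dip can serve both.

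Before the results, the labelled tissue was checked on marker genes with 5 kb added on each side. Of 7 placed excitatory cortical neuron markers 6 carried a peak, among them Camk2a (7 peaks) and Mef2c (32), and so did 3 of 3 general neuron markers, against 46.0% of all 13975 protein-coding genes. Neurod6 had none. Among markers listed for the retrosplenial area, Tshz2 carried 11 peaks and Nefm none. Inhibitory neuron markers carried none at 8 of 8 genes, endothelial ones none at 3 of 3 and epithelial ones none at 4 of 4, while hepatocyte markers carried one at 3 of 5. Astrocyte markers carried one at 2 of 4, oligodendrocyte ones at 3 of 5, microglial ones at 1 of 4 and muscle ones at 1 of 3. A twin pair lay at Camk2a and at the liver gene Hnf4a and at no other marker, against 5.63% of all 13975 protein-coding genes with a twin pair within 5 kb.

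The gaps were mostly short. The median twin gap was 734 bp (quartiles 424 and 1267 bp), and the whole pair, from outer edge to outer edge, spanned a median of 1844 bp (852 to 4944 bp). Gaps of up to 500 bp made up 30.9% of pairs, those over 500 and up to 1000 bp 33.5%, those over 1000 and up to 1500 bp 18.0% and those over 1500 bp 17.6%. Per 100 bp of gap length, counted from the shortest gap on, 2-peak clusters numbered 128.3 in the shortest of these classes, 67.8 in the next, then 36.4 and 35.6, and 25.2 over 2000 and up to 3000 bp. Twin pairs made up 36.5% of all 2775 clusters of 2 peaks.

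The lower limit of 200 bp never came into play. The smallest gap anywhere in the list was 257 bp, just above the fragment size that the caller stated, so no closer neighbours were listed as separate peaks. The 2 shortest gaps, of 257 bp each, lay inside Sez6, a seizure-related membrane protein gene, and inside Rilpl1. At the upper limit the last pairs kept had gaps of 1992 bp, inside the TGF-beta receptor gene Tgfbr2, and 1993 bp, nearest to Otud7a. The first pairs left out had gaps of 2002 bp, nearest to Akap2, and 2008 bp, nearest to Prcp. Their pileups, the number of ChIP fragments over the summit, were 18 and 17 at Tgfbr2 and 21 and 22 at Otud7a, against 22 and 36 at Akap2 and 28 and 26 at Prcp.

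Twin gaps held the ends of protein-coding genes at 45 of 1010 places, or 4.46% (Wilson interval 3.35 to 5.91%). Gene positions were those of RefSeq on assembly MicOch1.0, which gives no strand here, so an end may be where transcription starts or where it stops. The 45 gaps held 69 ends of 69 genes, or 0.494% of the 13975 genes used. Per 100 kb of gap this was 7.79 ends (Poisson interval 6.06 to 9.86). Spans of the same lengths placed 5, 10, 25 and 50 kb away on both sides of each gap held 2.14, 2.71, 2.09 and 2.48 ends per 100 kb, and 1.68 to 2.08% of those spans held an end. Over the whole of the sequences used there were 1.71 ends per 100 kb.

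The longest gaps held most of these ends. Among twin gaps over 1500 bp, 31 of 177 held a gene end (17.5%, Wilson interval 12.6 to 23.8%), and their density was 16.9 ends per 100 kb (12.7 to 22.2). In gaps of up to 500 bp it was 2 of 312 (0.641%), in those up to 1000 bp 5 of 339 (1.47%), and in those up to 1500 bp 7 of 182 (3.85%), with densities of 2.69, 2.46 and 3.57 ends per 100 kb. Spans as long as the gaps over 1500 bp, set 5 to 50 kb away, held an end in 1.98 to 5.37% and carried 1.47 to 3.58 ends per 100 kb. The interval of the density over 1500 bp did not overlap those of these spans or of the shorter gaps. The 3 shorter classes had intervals that included the 2.09 to 2.71 ends per 100 kb of the distant spans for gaps of all lengths. Poisson intervals take each end as independent, but 21 of the 31 gaps with an end held 2, so they are too narrow.

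The upper limit of the rule cut through this range. In clusters of 2 peaks with gaps over 2000 and up to 2500 bp, 31 of 137 gaps held a gene end (22.6%, 16.4 to 30.3%), at 17.9 ends per 100 kb. The density was 8.31 up to 3000 bp, 5.20 up to 4000 bp, 3.38 up to 8000 bp and 2.65 beyond. Among the 9 classes of gap, the 2 densest lay on either side of the limit.

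**Figure D1:**
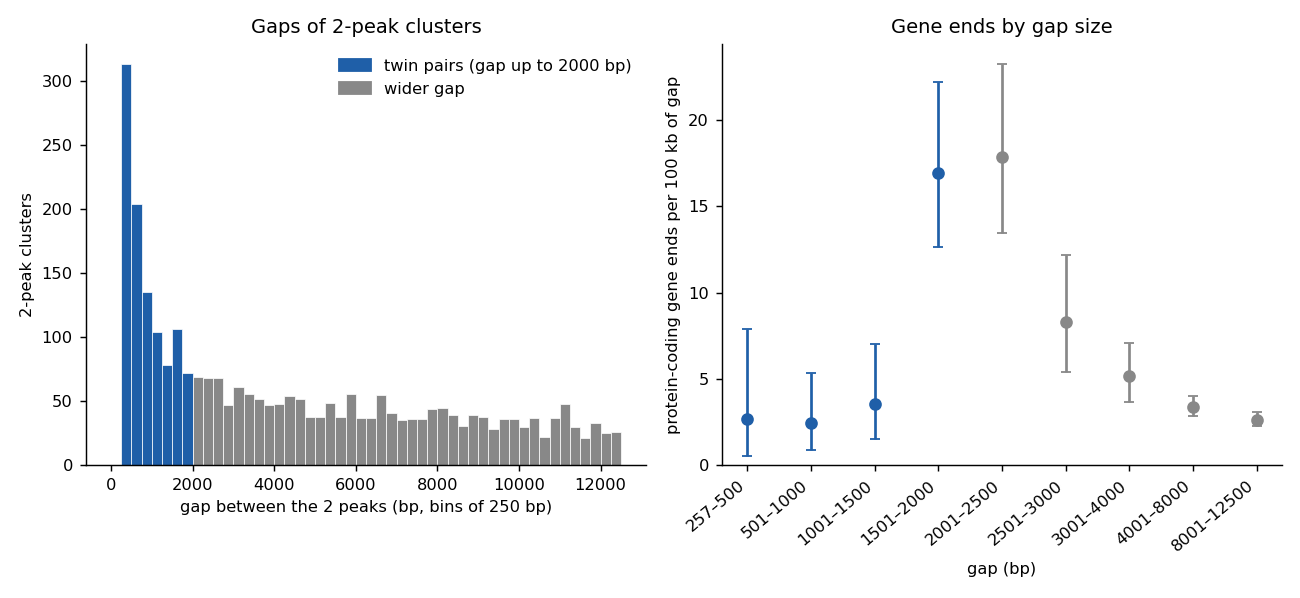
Left, number of 2-peak clusters by gap in bins of 250 bp, with twin pairs in blue and wider gaps in grey. Right, protein-coding gene ends per 100 kb of gap (points, with 95% Poisson intervals) by gap size in bp. Counts are highest in the shortest bin (313) and stand at 78, 106 and 72 in the last 3 twin bins, while the density of gene ends stands at 16.9 and 17.9 per 100 kb in the classes next below and next above 2000 bp and at 2.46 to 3.57 in shorter gaps.

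Clusters of 3 or more peaks have gaps of the same 200 to 2000 bp. A gene end lay in 45 of 1010 twin gaps (4.46%) and in 69 of 3637 gaps of the larger clusters (1.90%, 1.5 to 2.39%), at 7.79 and 2.79 ends per 100 kb. The intervals of the 2 shares did not overlap. Among gaps over 1500 bp the shares were 17.5% in twin gaps and 6.04% (4.38 to 8.29%) in larger clusters. The difference itself was not tested, since regions of 1 list are no replicates.

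At 24 of the 45 gaps the ends of 2 different genes lay between the peaks, and at 21 the end of a single gene. No gap held more than 2 ends or a whole gene. In 22 of the 24 the genes lay apart, and in 2 they overlapped. The ends of the 2 genes were a median of 139 bp from each other (17 to 574 bp). Of the 24 gaps, 21 were over 1500 bp long.

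Repair and RNA genes were among them. The gap between Xpo5, the exporter of microRNA precursors, and Polh, a polymerase that copies past DNA lesions, lay on linkage group 2 (pair at 4286093 to 4288554). It was 1568 bp long, with 30 fragments at 4.29-fold enrichment on one side and 25 at 2.49-fold on the other. With no strand given, whether the 2 genes of such a gap start back to back was not tested. The 2 peaks at Mtrr, which reactivates methionine synthase, and Fastkd3, a mitochondrial RNA-binding protein gene, had 23 and 19 fragments across 1987 bp on chromosome 19 (47983404 to 47986118). Trex1, a DNA exonuclease gene, and Atrip, the partner of the checkpoint kinase ATR, had their ends 574 bp apart, the widest spacing, in a gap of 1861 bp with 21 and 28 fragments.

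Other pairs lay at genes of protein synthesis, traffic and energy supply. The pair at Rps18, a small-subunit ribosomal protein gene, and Vps52, of a complex that tethers vesicles at the Golgi, was close to even, with widths of 498 and 504 bp and 22 and 25 fragments across 1633 bp. At Ndufb1, a subunit of respiratory complex I, and Cpsf2, which acts in cleavage of messenger RNA ends, widths were 680 and 294 bp, pileups 22 and 18, and the gap 1928 bp. Mitd1 and the mitochondrial ribosomal gene Mrpl30 had 27 and 24 fragments across 1625 bp. Gpalpp1 and Nufip1, which acts in assembly of small nucleolar RNA particles, had 24 and 26 across the same length. Prkra, an activator of the kinase PKR, and Pjvk, a hearing gene, had 21 and 26 across 1798 bp. Over the 24 gaps all pileups were 18 to 35 fragments.

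The strongest pair by its weaker peak among those with 2 gene ends was at LOC101985263 and Unc50, where 31 and 30 fragments gave 3.53-fold and 3.58-fold enrichment across 1694 bp. Next came Erp44, a chaperone of the early secretory pathway, with Invs, the cilium gene inversin, at 26 and 35 fragments and 3.05-fold and 4.02-fold. The deacetylase gene Hdac10 and the microtubule nucleation gene Tubgcp6 were less even, with 19 fragments over 307 bp facing 30 over 780 bp. At Anapc2, a subunit of the anaphase-promoting complex, and Ssna1 the pileups were 23 and 26, and at LOC101997616 and Adprm they were also 23 and 26. Cdk10 and Spata2l had equal pileups of 19 across 868 bp, and Kif1c, a kinesin gene, and Inca1 had 20 and 21 across 1989 bp, the longest gap with a gene end. Tekt2 with Adprhl2 (19 and 20), Tmem203 with Ndor1 (25 and 23) and Tsr3 with Gnptg (21 and 19) were also nearly equal.

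The shortest gap with a gene end, 447 bp, held the ends of Kctd11 and Tmem95, which were 232 bp apart, between peaks of 23 and 29 fragments. Those of 469, 603, 616 and 706 bp held an end of Art3, of Il17b, a cytokine gene, of Pnpla1, and of Sil1, which releases nucleotide from the chaperone BiP. Sil1 was the least even in pileup of all 45, with 39 fragments over 1055 bp at 4.68-fold facing 21 over 349 bp at 3.04-fold. Dnttip1 and Wfdc3 (18 and 27 fragments across 1964 bp) and Rnf167 and the mitochondrial carrier gene Slc25a11 (26 and 18 across 1809 bp) were also uneven.

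**Figure D2:**
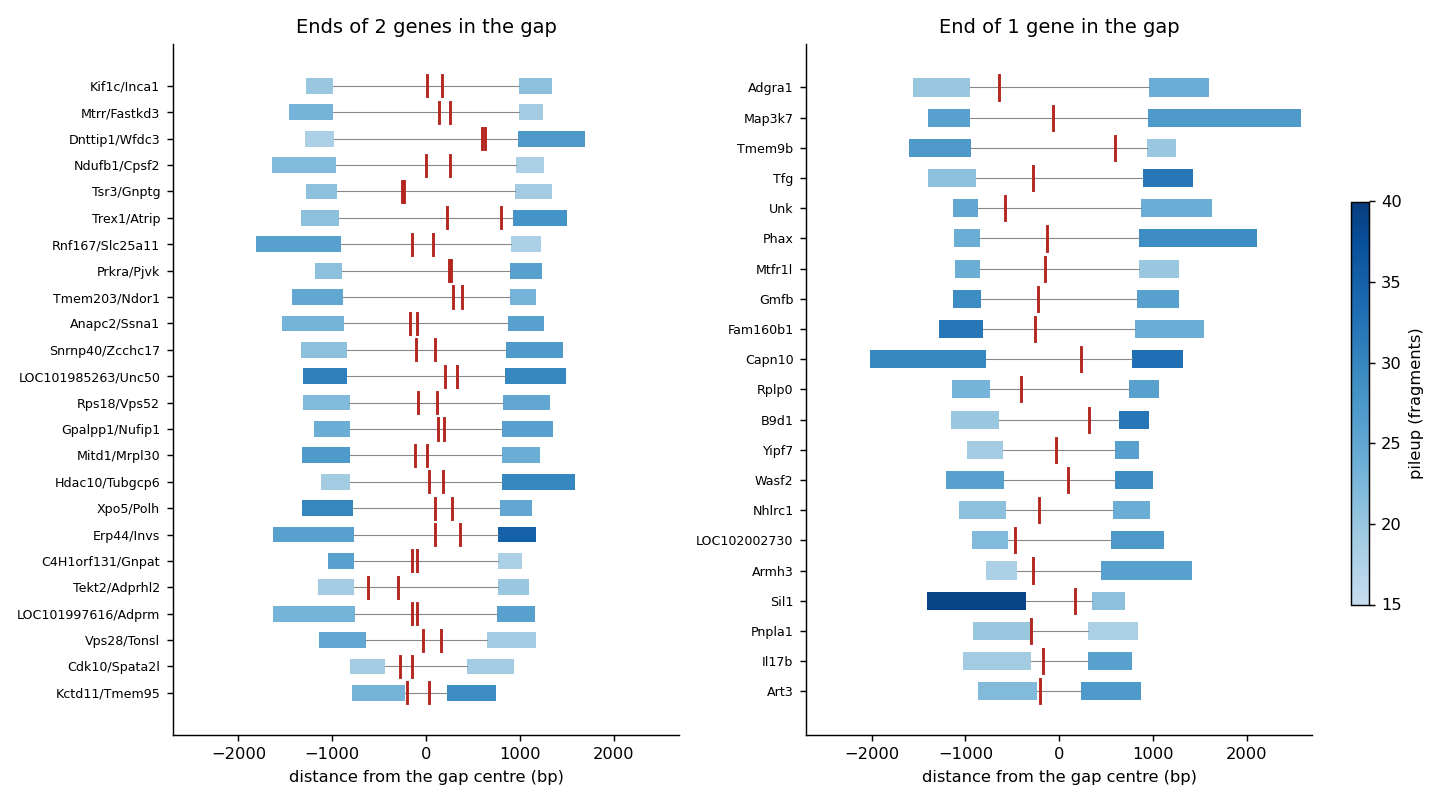
Twin pairs whose gap held a protein-coding gene end, aligned on the gap centre and ordered by gap length, with distance in bp on the horizontal axis. Bars are peaks, shaded by pileup in fragments, and red ticks are gene ends. In the 24 pairs on the left the ends of 2 genes stood 17 to 574 bp apart, and 21 of these gaps were longer than 1500 bp.

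Among the 21 gaps with the end of 1 gene, the peak on the gene's own side was the wider at 16 and the outer peak at 5. Median widths were 612 bp on the gene's side and 454 bp outside. Pileup was higher on the gene's side at 11 and outside at 10, with medians of 26 and 24 fragments. The larger difference was in width, and it was not tested. At 5 it went the other way. Sil1 had 349 bp on its own side and 1055 bp outside, Il17b 470 and 720 bp, and Nhlrc1 399 and 500 bp. Map3k7, the kinase TAK1 of the TGF-beta and cytokine pathways, had 1625 bp on its own side and 454 bp outside with nearly equal pileups of 27 and 26. Phax, an adaptor for export of small nuclear RNA, had 1263 and 271 bp, and the calpain gene Capn10 1239 and 541 bp. Capn10 was also the pair with the highest weaker peak of all 1012, at 4.03-fold and 4.01-fold. At Wasf2, an actin regulator, the fold values were 3.73 and 3.63. Nhlrc1, the ubiquitin ligase malin, had 24 fragments on its own side and 21 outside. Fam160b1 had 24 and 32, Armh3 26 and 18, Adgra1 24 and 20, and Unk 24 and 25.

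Most of the ends in twin gaps had an end of another gene close by. A distance of 600 bp, chosen after the spacing was seen, counts 2928 of all 27950 ends (10.5%) as close to an end of another gene. In twin gaps 48 of 69 ends were close (69.6%, 57.9 to 79.2%). These were the ends in the 24 gaps with 2 gene ends. The interval takes the 2 ends of a gap as independent, so it is too narrow. Of the close ends 1.64% (1.24 to 2.17%) lay in a twin gap, and of the lone ends 0.0839% (0.0549 to 0.128%), or 21 of 25022. In the gaps of larger clusters 1.23% of close ends and 0.208% of lone ends were found, and in 2-peak gaps over 2000 bp 5.05% and 1.08%. Close ends made up 69.6% of the ends in twin gaps, 40.9% (31.2 to 51.4%) of those in gaps of larger clusters and 35.5% (31.1 to 40.2%) of those in wider 2-peak gaps.

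**Figure D3:**
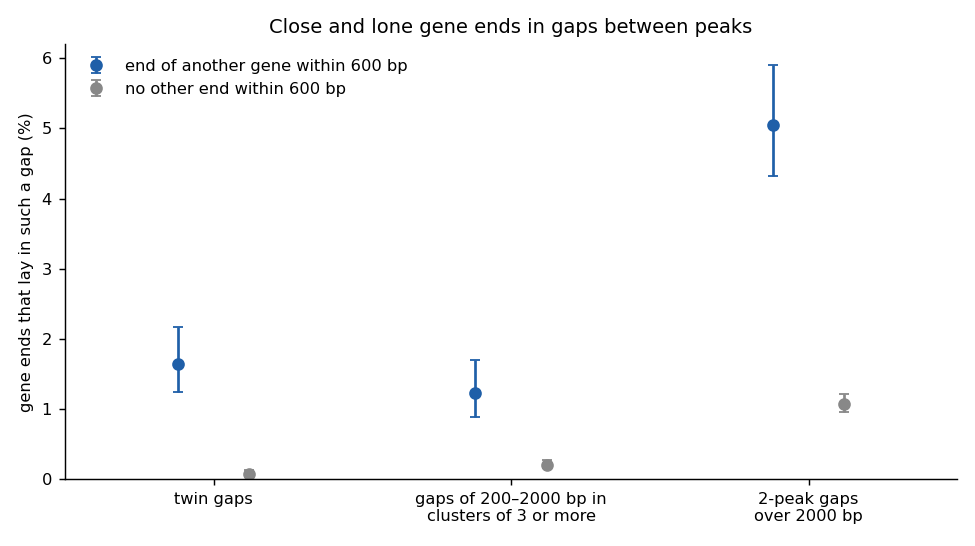
Percent of protein-coding gene ends that lay in a gap of each kind (points, with 95% Wilson intervals), for ends with an end of another gene within 600 bp (blue) and for lone ends (grey). In twin gaps the 2 shares were 1.64% and 0.0839%.

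The rest of the pairs had no gene end in the gap, 965 of 1010. A gene end lay under either peak of 14 pairs (1.39%), at 1.49 ends per 100 kb of peak. Measured from the gap centre outward, ends stood at 6.44 per 100 kb within 500 bp (4.97 to 8.20), at 1.98 (1.21 to 3.06) at 500 to 1000 bp, and at 3.96 to 5.15 from 1.5 to 4 kb. Beyond 4 kb they were at 1.68 to 2.97 per 100 kb. Other pairs sat beside an end rather than around it. For 175 pairs (17.3%) with no end in the gap the nearest end was 1.5 to 4 kb from the gap centre, and 157 of these (89.7%, 84.3 to 93.4%) had the gap centre inside a gene. At a distance of 2.5 kb single peaks were near ends about as often. An end lay that near to 16.1% of them (15.4 to 16.8%) and to 16.5% of twin gaps (14.4 to 19.0%). Within 500 bp the shares were 1.66% (1.44 to 1.93%) of single peaks and 4.36% (3.26 to 5.80%) of twin gaps. Both twin shares include gaps that held an end. Around gaps of larger clusters the density was 2.36 within 500 bp and 2.06 to 2.72 per 100 kb from 1.5 to 4 kb. Around wider 2-peak gaps it was 6.45 (5.32 to 7.75) within 500 bp, close to that of twin pairs, and 2.34 to 3.54 from 1.5 to 4 kb.

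**Figure D4:**
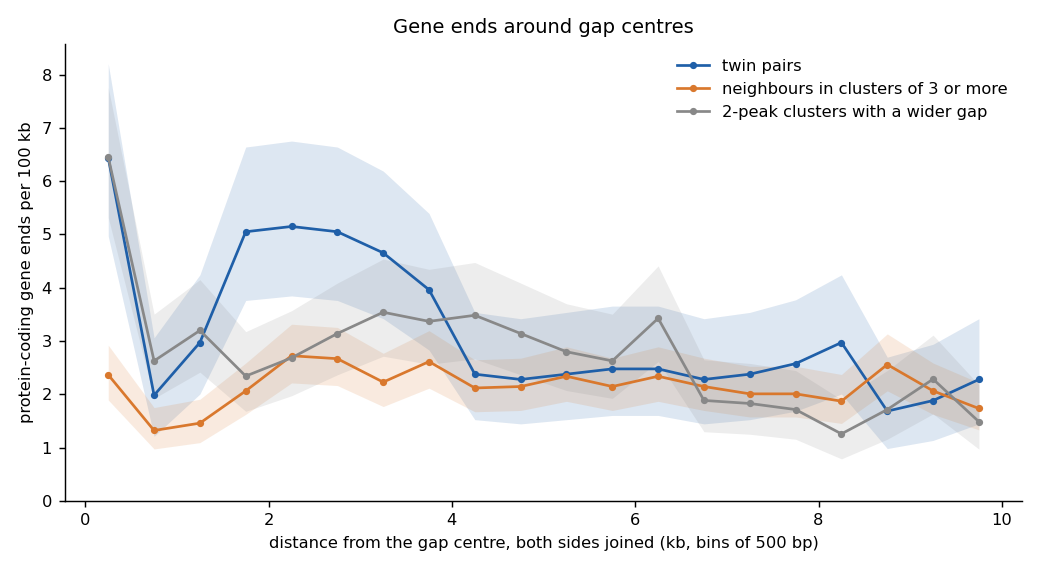
Protein-coding gene ends per 100 kb (lines, with 95% Poisson intervals shaded) by distance from the gap centre in kb, both sides joined, in bins of 500 bp. Twin pairs (blue) stand at 6.44 in the first bin, at 1.98 in the next, at 3.96 to 5.15 from 1.5 to 4 kb and at 1.68 to 2.97 beyond.

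Most twin gaps had their centre inside a gene. The gap centre was inside a gene at 701 of 1010 pairs (69.4%, 66.5 to 72.2%). The same share was 86.4% (85.2 to 87.4%) for gaps of the same size in larger clusters, 68.1% for wider 2-peak gaps and 57.1% (56.2 to 58.1%) for single peaks. A further 18.8% (16.5 to 21.3%) of twin gaps were between genes and more than 25 kb from any end, against 30.9% (30.0 to 31.8%) of single peaks. Twin gaps both inside a gene and more than 10 kb from any end numbered 392 (38.8%, 35.9 to 41.9%). The median distance from a twin gap to the nearest end was 21610 bp.

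Genes that held the centre of a twin gap numbered 641, or 4.59% of the 13975. They were long, with a median of 83.3 kb against 18.0 kb for all genes. In 10 genes there were 3 or more such gaps. Lsamp, an adhesion molecule of limbic neurons, had 4 over 2109 kb. Rere, Spock1 and LOC101997947 had 3 each, and Erbb4, the neuregulin receptor, Kalrn, an exchange factor of dendritic spines, Slit3, an axon guidance ligand, Opcml and the splicing regulator Rbfox1 had 3 each over 597 to 1689 kb. Ptk2, the focal adhesion kinase, had 3 within 190.5 kb, and its relative Ptk2b, a kinase driven by calcium, had 2 within 124.7 kb. The shortest genes with 2 were Mmp24 (33.3 kb), a metalloprotease of neurons, Rilpl1 (35.5 kb), Desi2 (46.1 kb) and Cd47 (55.1 kb), the signal that stops engulfment. Grin2a and Dlg2, an NMDA receptor subunit and a postsynaptic scaffold, had 2 each over 445.4 and 1687 kb. These genes were picked by the number of pairs, after the values were seen.

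Gene groups sorted by symbol carried few members with an end in a twin gap. They were 2 of 68 cytoplasmic ribosomal protein genes (Rplp0 and Rps18), 1 of 51 mitochondrial ribosomal ones (Mrpl30), 1 of 55 oxidative phosphorylation genes (Ndufb1), 2 of 103 vesicle traffic genes (Vps28 and Vps52), 1 of 49 chromatin genes (Hdac10), 3 of 163 transmembrane protein genes (Tmem203, Tmem95 and Tmem9b), 1 of 256 solute carriers (Slc25a11) and 1 of 67 interleukin and chemokine genes (Il17b). The background was 0.494%. None was found in the groups of 33 proteasome, 24 RNA polymerase, 33 translation initiation, 49 splicing and 102 ubiquitin genes. Nor was one found at 170 zinc finger, 62 potassium channel, 35 collagen, 13 keratin and 18 Hox genes. The splicing group took symbols starting with Snrp, Srsf, Sf3, Hnrnp or Prpf, and the ubiquitin group those with Ube2, Usp or Fbx. Nhlrc1, a ubiquitin ligase gene with an end in a twin gap, fell outside by its symbol. With 3 members or fewer in each group, these counts do not set the groups apart from the background.

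Twin gaps with their centre inside a gene were counted over the same groups. Some also held an end of that gene and were counted above, at Rplp0, Ndufb1, Il17b, Hdac10, Tmem203 and Tmem9b. Of the chromatin genes 7 of 49 held one (14.3%), among them the remodeller genes Chd7, Smarcb1 and Smarcc1 and the deacetylase gene Hdac9. Of the vesicle traffic genes 11 of 103 did (10.7%), Rab8b with 2, and of the proteasome genes 4 of 33 (12.1%), Psma6, Psmb7, Psmc2 and Psmd6. The background was 4.59%, and per Mb of gene there were 1.75 pairs in chromatin, 2.17 in vesicle traffic and 5.15 in proteasome genes, against 1.04 over all genes. Ubiquitin genes held them at 2 of 102 (0.371 per Mb), potassium channel genes at 3 of 62 (0.445 per Mb) and collagen genes at 1 of 35 (0.260 per Mb), although their median lengths were 40.5, 47.6 and 101.7 kb. Mitochondrial ribosomal genes held them at 2 of 51, or 2.73 per Mb, above the chromatin and vesicle traffic genes. Transmembrane protein genes held them at 9 of 163 (1.57 per Mb) and zinc finger genes at 8 of 170 (1.04 per Mb). Solute carriers held them at 10 of 256 (0.949 per Mb). Cytoplasmic ribosomal, oxidative phosphorylation, translation initiation and interleukin or chemokine genes held them at 1 each (0.795 to 1.17 per Mb). The RNA polymerase, splicing, keratin and Hox groups held none. Rbfox1, a splicing regulator, and Ube4b held twin gaps but fell outside the splicing and ubiquitin groups by their symbols. No test sets these groups apart from one another.

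The 2 peaks of a pair were close in height. The ratio of the lower pileup to the higher had a median of 0.867 (quartiles 0.783 and 0.945), and 731 of 1012 pairs (72.2%, 69.4 to 74.9%) had a ratio of at least 0.8. In 82 pairs the pileups were equal. Given the number of fragments at both summits, the exact 95% binomial interval of their split left out 50% in 20 pairs (1.98%). A 95% interval may leave out 50% in as many pairs of truly equal height. The count therefore cannot tell uneven pairs from even ones. Both peaks also had to pass the caller's threshold, which limits how uneven a listed pair can be.

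Other peaks of the list gave similar ratios. Median pileup ratios were 0.867 in twin pairs, 0.857 between neighbours of the same spacing in larger clusters, 0.864 in 2-peak clusters with wider gaps and 0.862 between a single peak and the next single peak along the sequence, a median of 92609 bp away. Fold enrichment gave 0.870 in twin pairs, 0.861 in larger clusters, 0.870 in wider 2-peak clusters and 0.871 between successive single peaks. All of these peaks had passed the same caller's threshold, and whether the ratios differ between the sets was not tested. The background computed for the 2 peaks had a median ratio of 0.896, and at 149 pairs (14.7%) both stood at the lowest value of the list, 6.23 fragments.

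Widths were less even. The ratio of the narrower width to the wider had a median of 0.682 (quartiles 0.493 and 0.839), and 745 pairs (73.6%) had a ratio of at least 0.5. The median ratio was 0.682 (0.660 to 0.703) in twin pairs, 0.625 (0.612 to 0.637) in larger clusters, 0.688 in wider 2-peak clusters and 0.701 (0.694 to 0.707) between successive single peaks. The most uneven pairs were nearest to Dpf1, a neuronal subunit of the BAF remodeller, with 289 and 2375 bp, and inside Cacna1b, the N-type calcium channel of presynaptic endings, with 271 and 2205 bp. In the tyrosine kinase gene Fyn the widths were 311 and 1848 bp. Among the most even were the pair nearest to Cck, the neuropeptide cholecystokinin, with 264 and 269 bp and 20 fragments at each summit, and that in Map3k4, with 270 and 268 bp and 18 fragments each. These pairs were picked by their ratios.

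The sides were compared along the sequence. The wider peak was at the lower coordinate in 517 pairs and at the higher in 494 (51.1% of the unequal ones, 48.1 to 54.2%), and the higher pileup in 462 and 468 pairs (49.7%, 46.5 to 52.9%). Within a pair the wider peak was also the higher in 625 of 929 pairs that were unequal in both (67.3%, 64.2 to 70.2%). Of summits off the middle of their peak, 1026 of 2020 were nearer to the gap (50.8%, 48.6 to 53.0%), against 51.2% in larger clusters. The summits of a pair stood a median of 1272 bp apart (324 to 3788 bp).

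**Figure D5:**
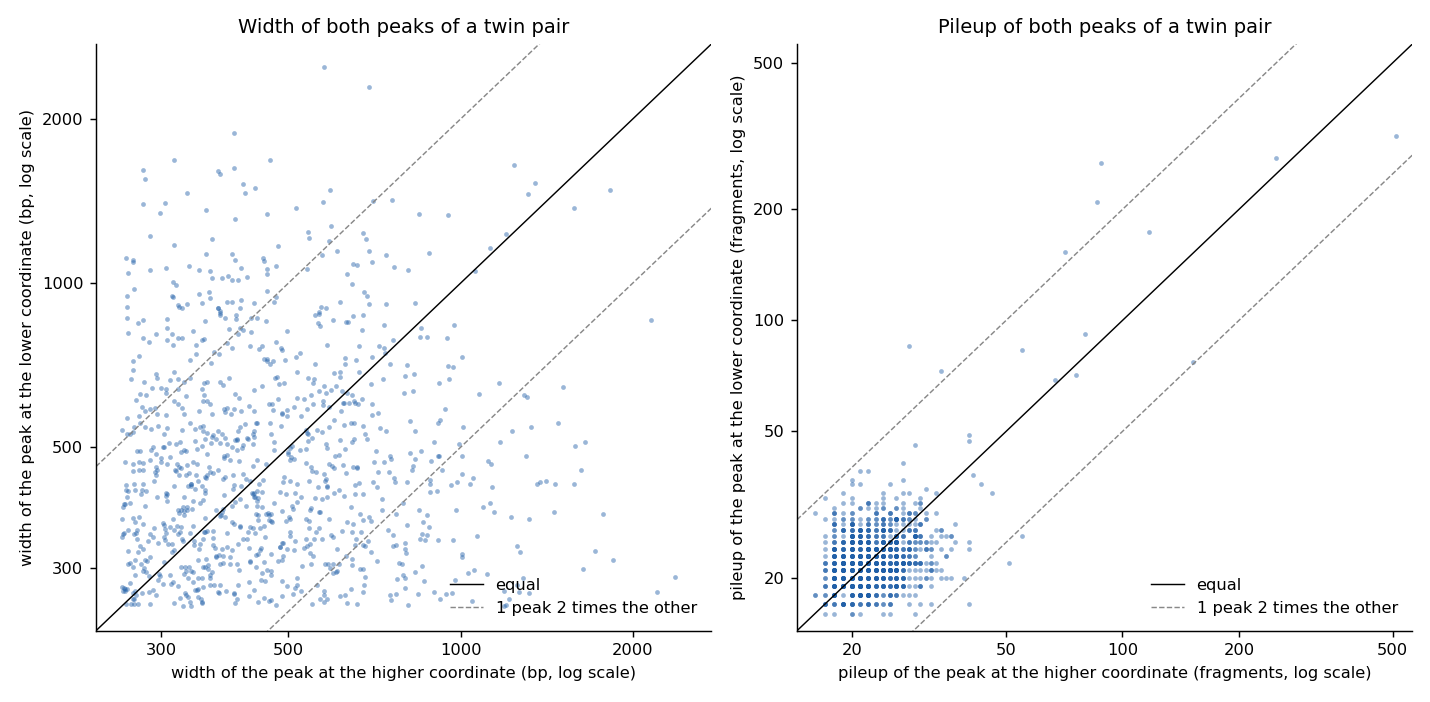
Width in bp (left) and pileup in fragments (right) of the 2 peaks of each of 1012 twin pairs on log axes, with the peak at the lower coordinate on the vertical axis. The solid line marks equal values and dashed lines a ratio of 2. Widths spread across and beyond the dashed lines, while 1004 pairs keep a pileup ratio of at least 0.5.

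Twin peaks lay between the other sets in strength. Their median fold enrichment was 2.86, against 2.78 for single peaks, 2.84 for wider 2-peak clusters and 2.90 for peaks of larger clusters, and their median width was 443 bp against 397, 416 and 476 bp. At least 4-fold enrichment was listed for 57 of 2024 twin peaks (2.82%), close to the 2.91% of all peaks on the same sequences. Pairs with a gene end in the gap and pairs without one had median pileups of 24 and 22 fragments, folds of 2.82 and 2.86 and pileup ratios of 0.828 (0.778 to 0.885) and 0.870 (0.862 to 0.875). Peaks of at least 4-fold were 6 of 90 (6.67%) in pairs with a gene end and 51 of 1930 (2.64%) in pairs without. The 6 included both peaks at Capn10, and the difference was not tested. Over the 4 classes of gap, median pileup ratios were 0.846 to 0.875 and median width ratios 0.657 to 0.707.

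By the weaker of the 2 peaks, Capn10 was followed by pairs in Gabbr2, a GABA-B receptor subunit (28 and 30 fragments, 4.01-fold and 4.29-fold, gap 624 bp), in Dennd4c (31 and 27, 4.36-fold and 3.87-fold, gap 274 bp) and in Carmil1. Sv2b, a synaptic vesicle glycoprotein, had 2 wide peaks of 1158 and 1128 bp at 4.16-fold and 3.73-fold across 640 bp on chromosome 22 (18735350 to 18738275). The widest pair of all lay in Ldlrad4 on chromosome 18 (53439810 to 53444753), with 1480 and 1826 bp and 28 and 29 fragments across 1638 bp. Rtn1, a reticulon of neurons, held 2496 and 576 bp across 267 bp.

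Across the 23 sequences with at least 20 pairs, twin pairs numbered 23.9 to 44.1 per 1000 peaks, the median gap was 614 to 1198 bp, the median pileup ratio 0.833 to 0.907 and the median width ratio 0.580 to 0.749. The X carried 2 pairs.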

How the data were processed

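The authors called peaks on paired-end fragments with MACS 2.0.10.20131216 and a q cutoff of 0.05, per the file headers. SAMtools 0.1.19, BWA 0.7.12 and MACS2 2.0.10 are named by the submitters' processing notes, but paths in the header name Stampy, so which aligner was used is unclear. The deposited signal is the pileup, ChIP fragment coverage at the summit. The deposited fold is the ratio of pileup to local background, each with 1 added, and the background was computed back from both. Each peak's −log10 p and −log10 q are as deposited by the authors, and q served only as a filter. All peak values are the authors'. Coordinates are as deposited and counted from 1; the sources used here name no build.

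Gene positions came from RefSeq on MicOch1.0. Sequence names matched, and a gene end was 1 to 2.5 kb away from 2472 peaks as deposited and from 1199 to 1371 peaks once shifted by 20 to 200 kb. Unplaced sequences and chromosome 14 were left out, and so was chromosome 6 below 20 Mb, where 50.6% of genes in the table overlap an earlier one against 4.17% beyond. This left 1010 pairs and 13975 of 20077 protein-coding genes. A gap held a gene end if the coordinate lay between the inner edges. Shares have Wilson intervals, densities Poisson intervals and medians order-statistic intervals, all at 95% and for counting error only. Intervals on ends take each end as independent, although 24 twin gaps held 2 of them. No p-value was computed, as there was 1 library of each kind. Genes with an end in a gap were named for highest weaker fold, most even pileup, largest summed width, 2 genes, and shortest or longest gap, and markers were named too, except 1 that is not reported here. The pair finding was checked on simulated data. Python 3.11.15, pandas 2.3.3, numpy 2.4.6 and scipy 1.17.1 were used. The pairs, lists and settings were chosen with earlier results of these data known.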

Additional observations from a re-analysis of the deposited data

Results flagged for a closer look

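On sequences outside the named chromosomes and linkage groups, which the report does not use, there were a further 376 twin pairs, 321 on unplaced and 55 on unlocalised sequences. Their median gap was 776 bp, their median width ratio 0.693 and their median pileup ratio 0.852. A background above 5 times the lowest was found at 44 of the 376 pairs and at 12 of the 1012 placed pairs. With them added, the 1388 pairs had a median gap of 740.0 bp, a median width ratio of 0.685 and a median pileup ratio of 0.864. Gene ends were not counted on these sequences.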

How the results depend on the processing

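No paired analysis was possible because there was 1 library of each kind. Of 60 alternative values, 44 stayed within the counting interval (for the number of pairs, within 1.5 times) and 16 did not; 7 of the 60 were chosen after the data were examined. The number of pairs was 1751 and 556 with joining distances of 5 and 25 kb, 652 with gaps of at most 1000 bp, and 501 with the 50% of peaks of stronger q. That filter also gave ratios of 0.639 in width and 0.897 in pileup, and the cause was not tested. Median gaps were 519, 1026 and 950 bp with limits of 200 to 1000, 500 to 2000 and 200 to 3000 bp, which the limits set. Under the same limits the share of gaps with a gene end was 1.08, 6.14 and 7.45%. Densities were 2.54 ends per 100 kb up to 1000 bp, 9.96 up to 3000 bp and 5.44 between summits. Among the 16 was the share of pairs with a width ratio of at least 0.5 (73.6%). It is a percent set against the interval of a median ratio, so it could only fall outside. For gaps over 1500 bp the share stayed at 14.4 to 18.7% in the alternatives run. The few fragments at a summit limit what can be said of the evenness of single pairs, and 1 list gives no spread between animals.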

Other observations

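The pairs of greatest summed pileup stood over raised backgrounds. At the pair nearest to Dtnbp1 the pileups were 317 and 511 fragments, with 1.28-fold and 1.31-fold enrichment over backgrounds of 246.8 and 388.8 fragments. Nearest to Fgf14 they were 276 and 249 fragments at 1.55-fold and 1.85-fold. Next in summed pileup came the pairs nearest to Alas2 (1.77-fold and 1.72-fold), inside Abcc1 (1.44-fold and 2.85-fold) and nearest to Asl (2.01-fold and 2.21-fold), against a median of 2.86-fold over all twin peaks. The 3 least even pairs by pileup also stood over raised backgrounds, at 55.1 and 13.6 fragments nearest to LOC101998813, at 150.3 and 50.8 nearest to Alas2 on the X, and at 144.4 and 29.5 inside Abcc1. Background and pileup were uneven in the same direction at each of these 3. Their part in the evenness of pairs was not tested beyond leaving out every peak whose background exceeded 5 times the lowest, which gave the same median pileup ratio of 0.867.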
